A study of Homo sapiens with 4 samples.

Results

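Gene desert peaks were taken as the consensus ATAC-seq peaks on chromosomes 1 to 22 and X whose midpoint lay more than 200 kb from every protein-coding transcript start of GENCODE 44 (basic set, GRCh37, which is hg19). There were 26596 of them among the 139865 peaks on these chromosomes (19.0%) and the 139872 peaks in all. ATAC-seq uses a transposase that inserts sequencing adaptors into open DNA, so a peak marks accessible chromatin. The cells were SEM, an established B cell precursor leukemia line with an MLL rearrangement, and all expressed dCas9-KRAB, in which a Cas9 that cannot cut DNA is joined to a repressor domain. In 2 libraries the cells carried sgFLT3-DE-1, which targets an enhancer of FLT3 bound by HOXA9, and in 2 others the non-target guide sgNT. The labels do not say whether libraries 1 and 2 of a guide came from separate cultures, so the spread between them may be technical.

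Gene deserts are long stretches without protein-coding genes, often next to genes of development or of the nervous system. They are rich in A and T, replicate late in many cell types, and can hold enhancers that act on a gene far away. They also hold noncoding RNA genes and many copies of transposable elements. In a single cell line most of a desert is closed, and an accessible site in it can be an enhancer, the start of a noncoding RNA, a binding site of the boundary factor CTCF, or a repeated element.

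The 2 sgFLT3-DE-1 libraries had 3670758 and 4831164 counts and the sgNT libraries 3321429 and 2683477. Levels are given as normalised CPM, meaning counts scaled to CPM by the library total over tested peaks after TMM scaling. Of 4 promoters of B cell precursor genes, 3 held a peak within 1 kb of the start (PAX5, EBF1 and VPREB1, at 7.84 to 27.2 CPM) and CD79A held none. Of 3 T cell genes, CD3D had no such peak, CD3E was at 0.508 CPM and CD8A at 12.5 CPM. Of 3 myeloid genes, CD14 had none, CSF1R was at 0.902 CPM and MPO at 4.91 CPM. Among genes of MLL-rearranged leukemia, the strongest peak within 1 kb of the start was at 4.63 CPM for HOXA9, 35.7 CPM for MEIS1 and 173 CPM for FLT3. The FLT3 peak had 150 and 162 CPM with sgFLT3-DE-1, against 182 and 198 CPM with sgNT (log2 fold change -0.28 ± 0.27 SE, edgeR adjusted p = 1.0). The guides did not overlap there, as in 13.8% of all tested peaks in this direction, and the change did not pass the test. These genes were picked after the counts were known.

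Some of the strongest gene desert peaks shared sequence with each other, as the stretches below show. Each stretch was chosen as the 80 bases where the members compared were most alike, so it does not measure the likeness of whole peaks. The 2 families that hold ranks 3 and 4 by level among the gene desert peaks are shown, with 80 bases of 3 members each, written 5′ to 3′ on the strand that aligns to the first line. Capitals mark the bases that the 3 members shown share, 63 of 80 in the family of the VGLL3 peak.
VGLL3 peak, chr3:86779898-86779977, plus strand: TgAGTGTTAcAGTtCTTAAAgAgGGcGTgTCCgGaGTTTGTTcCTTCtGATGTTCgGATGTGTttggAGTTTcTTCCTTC
ENSG00000237378 peak, chr13:63811360-63811439, minus strand: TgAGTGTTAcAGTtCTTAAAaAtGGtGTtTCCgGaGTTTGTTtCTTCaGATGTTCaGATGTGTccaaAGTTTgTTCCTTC
ARAP2 peak, chr4:35802818-35802897, plus strand: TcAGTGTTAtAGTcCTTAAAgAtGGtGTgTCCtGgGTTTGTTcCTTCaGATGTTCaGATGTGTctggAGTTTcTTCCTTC

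In the family of the FSCB peak, 50 of 80 bases were shared by the 3 members shown. Each peak is called by its nearest protein-coding gene, which need not be its target.
FSCB peak, chr14:44272455-44272534, plus strand: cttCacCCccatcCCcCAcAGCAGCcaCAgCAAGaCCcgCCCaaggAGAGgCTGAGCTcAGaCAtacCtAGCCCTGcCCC
BCL11A peak, chr2:59641295-59641374, minus strand: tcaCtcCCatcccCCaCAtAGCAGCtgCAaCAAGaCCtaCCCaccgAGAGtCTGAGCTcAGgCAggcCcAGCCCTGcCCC
ARAP2 peak, chr4:35365992-35366071, minus strand: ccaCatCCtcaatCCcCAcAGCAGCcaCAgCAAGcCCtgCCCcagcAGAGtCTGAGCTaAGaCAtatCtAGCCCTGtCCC

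The strongest gene desert peak had another kind of sequence. It covered the start of the noncoding RNA LINC02018, and its central 200 bases were 64.5% G or C, with the 11 CpG dinucleotides in capitals.
LINC02018 peak, chr3:75484599-75484798, plus strand: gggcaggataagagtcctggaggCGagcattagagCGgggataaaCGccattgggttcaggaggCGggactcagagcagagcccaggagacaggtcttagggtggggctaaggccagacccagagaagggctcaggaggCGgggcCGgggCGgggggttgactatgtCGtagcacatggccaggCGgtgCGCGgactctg

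Gene desert peaks were by median the weakest, narrowest and most AT-rich of the 5 distance classes. Their median level was 2.7 CPM, against 3.14 CPM for peaks 50 to 200 kb from a coding start, 3.22 CPM for those at 10 to 50 kb, 3.77 CPM for those at 1 to 10 kb and 10.2 CPM for those within 1 kb. Over all peaks outside the deserts the median was 3.85 CPM. By library, the median gene desert peak had 3.09 and 2.43 CPM with sgFLT3-DE-1, against 2.67 and 2.4 CPM with sgNT, and the median peak elsewhere had 3.71 and 4.2 CPM with sgFLT3-DE-1, against 3.68 and 4.0 CPM with sgNT. The gene desert median was the lower of the pair in 4 of 4 libraries. Among tested peaks alone it was lower in the libraries numbered 2 but not in those numbered 1. Tested gene desert peaks had medians of 7.1 and 5.75 CPM with sgFLT3-DE-1, against 6.68 and 5.61 CPM with sgNT, and tested peaks elsewhere had 6.49 and 7.3 CPM with sgFLT3-DE-1, against 6.68 and 7.21 CPM with sgNT. Raw counts behind the gene desert medians over all peaks were small, with median counts of 10 and 11 with sgFLT3-DE-1, against 8 and 6 with sgNT.

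The median width was 165 bp for gene desert peaks (quartiles 117 and 228 bp), against 182 bp for all other peaks and 270 bp for peaks within 1 kb of a start. Per kb of peak the median level was 16.6 CPM in the deserts and 21.2 CPM elsewhere. Widths in the deserts ran between 79 and 1147 bp, and 413 peaks (1.55%) were wider than 500 bp, against 5334 (4.71%) elsewhere. Wider peaks were stronger, with a Spearman correlation across the 26596 peaks of 0.84, which is a description because width and counts come from the same reads.

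**Figure D1:**
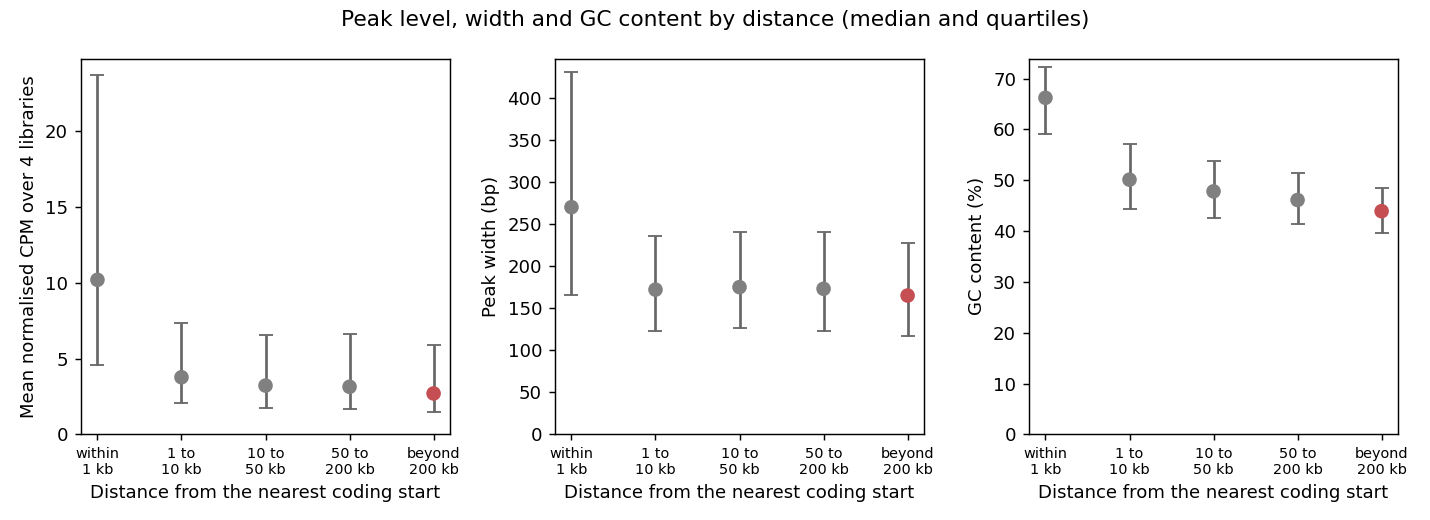
Peak level (mean normalised CPM over the 4 libraries), width (bp) and GC content (%) by distance from the nearest protein-coding start, with points at the median and bars at the quartiles. The gene desert class at the right, in red, has the lowest median in each panel, at 2.7 CPM, 165 bp and 43.9%.

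Median GC content was 43.9% in gene desert peaks and 49.3% in all others, and 66.2% in peaks within 1 kb of a start. The gene desert sequence as a whole was 37.7% G or C, so its peaks were richer in G and C than the ground they lay in. Peaks above 60% GC made up 1.82% of the gene desert peaks (483) and 19.9% of the others (22536). Peaks below 35% GC made up 6.62% of the gene desert peaks and 2.91% of the others. Across gene desert peaks GC content had no rank correlation with level (Spearman 0.0) and a weak one with distance (Spearman -0.13).

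Inside the deserts the level changed little with distance. The median distance was 400 kb and the quartiles were 276 and 663 kb. The 16534 peaks at 200 to 500 kb had a median of 2.82 CPM, the 7030 peaks at 500 kb to 1 Mb 2.55 CPM and the 3032 peaks beyond 1 Mb 2.49 CPM, with median GC contents of 44.4%, 43.2% and 42.4%. The 3 farthest peaks lay next to each other on chromosome 4 between PCDH7 and ARAP2, with the farthest at chr4:33494998-33495146, 2.75 Mb from ARAP2. It had 0.927 and 1.55 CPM with sgFLT3-DE-1, against 2.67 and 1.6 CPM with sgNT, which is 3 and 7 counts against 8 and 4, too few to enter the tests.

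At the 200 kb limit the peaks had ordinary levels. The 3 just inside were near LRTM1 (200024 bp, mean 5.86 CPM), PRR16 (200061 bp, 4.67 CPM) and DPP6 (200075 bp, 3.44 CPM). The 3 just outside were near GUCY2F (199997 bp, 1.74 CPM), RNGTT (199994 bp, 1.37 CPM) and AC008394.1 (199991 bp, 1.64 CPM).

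Although weak at the median, the deserts held strong peaks. Peaks of 50 CPM or more made up 1.11% of the gene desert peaks (295), against 0.654% at 50 to 200 kb and 0.475% at 10 to 50 kb from a start, and 8.81% within 1 kb. At 10 CPM or more the order differed, with 14.3% of gene desert peaks (3803), 15.6% at 50 to 200 kb and 15% at 10 to 50 kb. The strongest 1% of gene desert peaks (266) held 12.4% of the summed gene desert level, close to the 12.1% held by the strongest 1% elsewhere.

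Of the gene desert peaks, 14226 (53.5%) lay outside every protein-coding and long noncoding RNA gene body. A further 7439 (28.0%) lay in a long noncoding RNA gene only. The other 4931 (18.5%) overlapped the body of a coding gene, though over 200 kb from every coding start of the basic set. Only 197 peaks overlapped a coding gene's exon. Long noncoding RNA starts were within 1 kb of 659 peaks (2.48%), and these had a higher median level, at 3.82 CPM, and a median GC content of 47.0%. A miRNA lay within 1 kb of 43 peaks.

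The 12 strongest gene desert peaks lay 228.8 to 1638.5 kb from a coding start. The strongest, chr3:75484184-75485213 at LINC02018, had 349 and 220 CPM with sgFLT3-DE-1, against 329 and 239 CPM with sgNT (mean 284 ± 64.1, SD over 4 libraries). It lay 181 bp from the LINC02018 start and 229 kb from FRG2C, was 1030 bp wide and 70.9% G or C, and had 12 copies elsewhere in GRCh37. The libraries numbered 1 were the higher ones with both guides, so the guides overlapped.

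The second, chr21:25341018-25341598, lay 246 bp from the start of the noncoding RNA ENSG00000235564 and 1638.5 kb from MRPL39, a gene of the mitochondrial ribosome. It had 198 and 135 CPM with sgFLT3-DE-1, against 164 and 126 CPM with sgNT. The third, chr3:86779898-86780415, lay 260 kb from VGLL3, a transcription cofactor gene, and had 195 and 122 CPM with sgFLT3-DE-1, against 175 and 131 CPM with sgNT. The fourth, chr14:44272380-44273030, lay 704 kb from FSCB, a sperm fibrous sheath gene, and had 203 and 119 CPM with sgFLT3-DE-1, against 162 and 131 CPM with sgNT. In each of these the 2 libraries of a guide lay farther apart than the 2 guide means.

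Ranks 5 to 10 were intergenic, apart from rank 7. Rank 5, chr5:18698334-18698912, lay 1043 kb from H3Y1, a histone gene, and averaged 145 CPM. Rank 6, chr4:31615557-31616175, lay 894 kb from PCDH7, a protocadherin of neurons, and averaged 142 CPM. Rank 7, chr9:66457785-66458658, lay 296 bp from the start of LINC01410 with 68.8% G or C, and averaged 138 CPM. Ranks 8 to 10 averaged 126, 125 and 120 CPM near EPHA6, an ephrin receptor, ANKRD30A, and CNTN4, a contactin of axons.

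Rank 12, chr2:59640838-59641659, lay 1137 kb from BCL11A, a transcription factor of B cell development, and had 150 and 105 CPM with sgFLT3-DE-1, against 118 and 97.3 CPM with sgNT. Over the 12 peaks the log2 fold change (sgFLT3-DE-1 over sgNT) lay between -0.01 and 0.29, in 0 of 12 did the guides separate (13.7% of all tested peaks had both sgFLT3-DE-1 libraries above both sgNT libraries and 13.8% below), and in 11 of 12 the libraries numbered 1 were both above those numbered 2.

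**Figure D2:**
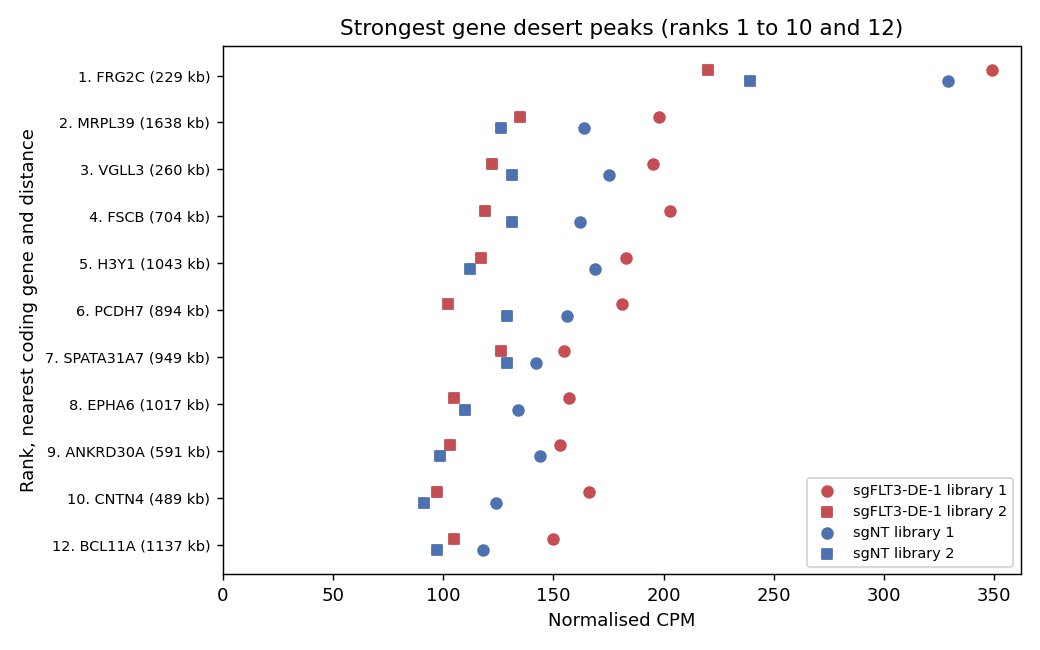
Normalised CPM (x axis) of the gene desert peaks of ranks 1 to 10 and 12 in each library, ordered by mean level and named by nearest coding gene and distance, with sgFLT3-DE-1 in red and sgNT in blue, circles for libraries 1 and squares for libraries 2. In the 11 peaks shown both circles lie right of both squares, and the guides overlap in each.

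The 3 widest gene desert peaks included the LINC02018 peak. The widest, chr2:140038755-140039901, was 1147 bp, lay 501 kb from NXPH2, a neurexophilin gene, and averaged 116 CPM. The other, chr2:122758495-122759512, was 1018 bp, lay 245 kb from TSN, and averaged 53.5 CPM.

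Shared sequence was more common among strong gene desert peaks than among other strong distal peaks. Of the 1000 strongest gene desert peaks, 202 (20.2%) aligned over at least 100 bases with another of the 1000, in 35 families. The same was found for 84 (8.4%) of the 1000 strongest peaks at 50 to 200 kb, in 12 families, and for 100 (10.0%) of those at 10 to 50 kb, in 14 families. Of the 100 strongest peaks of each class, 32 in the deserts, 12 at 50 to 200 kb and 6 at 10 to 50 kb had such a partner. Families were joined by chains of alignments, so members need not share 1 common stretch.

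The 3 largest gene desert families had 55, 23 and 22 members. The largest was led by a peak near FAM181B at rank 37. The family of 23 held rank 3 (VGLL3) and rank 26 (B3GALT2). The family of 22 held rank 4 (FSCB), rank 12 (BCL11A) and rank 13 (NXPH2). Searched in the whole genome, 47 of the 200 strongest gene desert peaks (23.5%) had a copy of at least 80% identity over at least 50% of their length, against 25 (12.5%) at 50 to 200 kb and 19 (9.5%) at 10 to 50 kb. At least 10 copies were found for 34, 16 and 8 of the 200 peaks in the 3 classes. The VGLL3 peak had 1674 copies, the B3GALT2 peak 1281, the FSCB peak 194, the H3Y1 peak 87 and the BCL11A peak 54, while the peaks near PCDH7, EPHA6, ANKRD30A and CNTN4 had 0. Counts depend on the search and its limits, so 0 does not mean that a sequence occurs once. The NXPH2 peak, of the same family as the FSCB peak, had 4. Reads that match several copies equally are lost where only uniquely mapped reads are kept, so the levels of such peaks are uncertain.

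Gene desert bases made up 759.9 of the 2835.7 Mb of known sequence (26.8%) but held 19.0% of the peaks. That is 35 peaks per Mb in the deserts and 54.6 peaks per Mb elsewhere. The density was lower in the deserts on 23 of 23 chromosomes. It was highest on chromosome 3, with 40.8 per Mb in the deserts and 58.6 elsewhere, and lowest on chromosome 22, with 13.1 per Mb in the deserts and 58.3 elsewhere. Chromosome 22 had 3.8 Mb of desert and 50 peaks, so its value rests on little sequence. Chromosome 2 had the most gene desert peaks, 3054 in 75.2 Mb.

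By 1 Mb, 1683 bins held at least 1 gene desert peak, with a median of 13 and a highest count of 63. To compare bins with the same amount of desert, 230 bins with at least 900 kb of it were taken. They held 0 to 63 peaks, with a median of 33.0 and quartiles of 27 and 40. The variance of the counts was 111.6 and the mean 33.7, whereas peaks placed independently at an equal rate would give a variance near the mean. Of the gaps between neighbouring gene desert peaks, 13.4% were 2 kb or less. The part of such close pairs in the variance was not tested. Counts did not follow the GC content of the bin's desert (Spearman -0.05 over 230 bins, as a description).

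**Figure D3:**
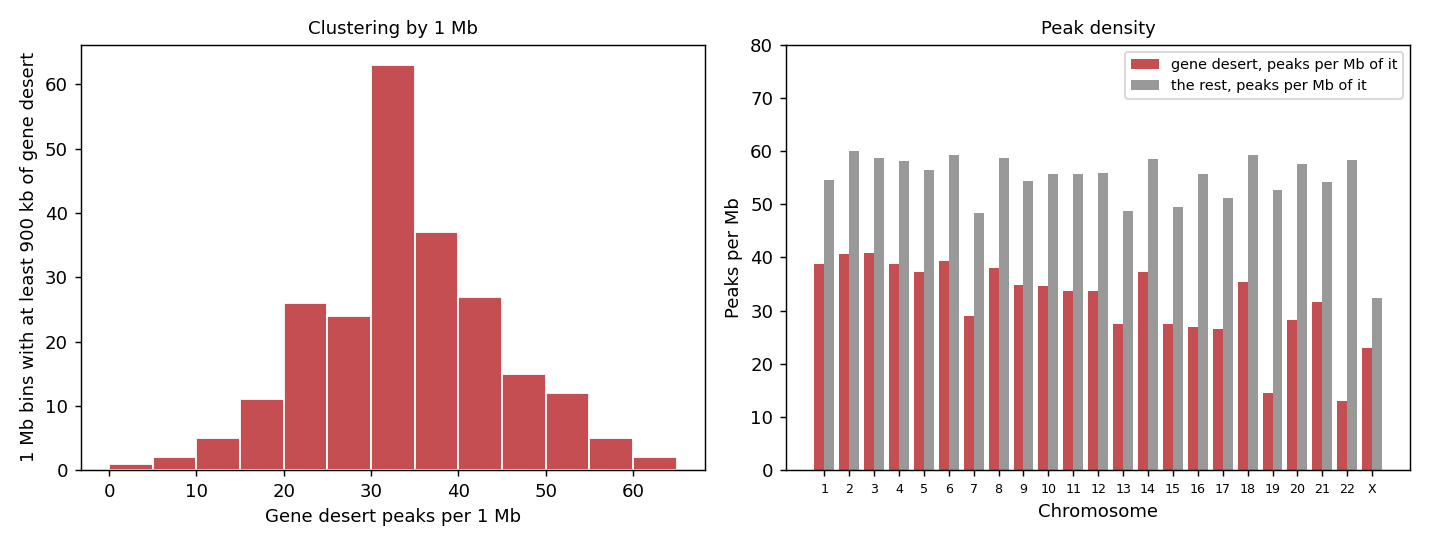
Left, number of gene desert peaks in each of the 230 bins of 1 Mb with at least 900 kb of gene desert, which range between 0 and 63 around a median of 33.0. Right, peaks per Mb of gene desert (red) and per Mb of the remaining sequence (grey) on each chromosome, with the gene desert bar the lower in every pair.

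The bin with most gene desert peaks was chr1:194000001-195000000, with 63 peaks between B3GALT2 and KCNT2, and a median level of 1.72 CPM per peak. Its peaks together had 388.7 and 238.5 CPM of the library total with sgFLT3-DE-1, against 322.2 and 224.3 with sgNT, and its strongest was the B3GALT2 peak of the VGLL3 family, at 99.5 CPM. The bin chr3:18000001-19000000 held 62 peaks in only 0.569 Mb of desert around SATB1, a chromatin organiser of lymphocytes. Its peaks had 470.5 and 448.8 CPM with sgFLT3-DE-1, against 460.0 and 449.4 with sgNT, a narrow spread, and the strongest, at 67.5 CPM, overlapped a HOXA9-bound region. The other 3 bins were chr4:181000001-182000000 between AGA and TENM3 (62 peaks), chr3:177000001-178000000 next to TBL1XR1 (60 peaks) and chr5:164000001-165000000 between MAT2B and TENM2 (59 peaks). TENM2 and TENM3 are teneurins, adhesion proteins of neurons. At the low end, the bin chrX:143000001-144000000 held 0 peaks in 0.946 Mb of desert, chr7:62000001-63000000 held 5 and chr13:83000001-84000000 held 9.

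Gene desert peaks near genes of blood cells had higher median levels than gene desert peaks as a whole. A peak was put with a list if its nearest coding start belonged to a gene of the list. The 520 peaks near 29 of 53 hematopoietic and B-lineage transcription factor genes had a median of 3.41 CPM, and 19.0% reached 10 CPM, against 2.7 CPM and 14.3% for all gene desert peaks. ZEB2, a repressor of the zinc finger homeobox kind, had 54 of them, ID2 47, MYC 44, BCL11A 41 and GATA3 41. Single genes differed, with medians of 3.45, 3.85, 3.5, 2.37 and 3.71 CPM in the same order, so BCL11A was below all gene desert peaks. The 189 peaks near 10 of 36 cytokine, receptor and signalling genes of blood cells had a median of 3.39 CPM, and 19.6% reached 10 CPM. PTPRC, which codes for CD45, had 51 of these. A PTPRC peak, chr1:198906483-198906847, lay 65 bp from the start of MIR181A1HG, the host gene of a miR-181 of lymphoid cells, with 81.2 and 60.1 CPM with sgFLT3-DE-1, against 76.9 and 67.3 CPM with sgNT.

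The 2 other lists had lower levels than the blood cell lists. Against all gene desert peaks (2.7 CPM and 14.3%), the developmental list was still higher and the neuronal list lower. The 699 peaks near 52 of 79 developmental transcription factor genes had a median of 2.86 CPM, and 15.2% reached 10 CPM. POU3F3, a neural factor, had 36, the strongest at 87.6 CPM. The 3711 peaks near 87 of 98 neuronal adhesion, channel and synapse genes had a median of 2.45 CPM, and 12.9% reached 10 CPM. They were also the farthest out, at a median of 600 kb, and had the lowest median GC content, 42.6%. PCDH7 had 151, TENM3 137, FLRT2 120 and CDH9 105. The strongest at TENM3 had 85.8 CPM. Inside CNTNAP2, a neurexin relative, a peak with 100 copies in the genome averaged 98.6 CPM, and inside CNTN5 a peak with 0 copies averaged 97.6 CPM.

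Short motifs were counted on both strands in the central 200 bases of each peak, as a description. The CTCF core motif was in 2.39% of gene desert peaks, 3.77% of all other peaks and 3.51% of all peaks. The RUNX motif TGTGGTT was in 17.8% of gene desert peaks and 14.2% of all peaks, the AP-1 motif TGANTCA in 14.5% and 11.8%, the PU.1 motif GAGGAAGT in 6.66% and 5.38%, and the octamer ATGCAAAT in 2.01% and 1.45%. In the other direction, the E-box CAGGTG was in 9.44% and 11.6%, the EBF motif TCCCNNGGG in 4.76% and 6.35%, and the ETS motif CGGAAGT in 0.8% and 1.93%. The GATA motif AGATAAG was in 3.35% and 2.55%. These motifs differ in GC content, as do the peaks, and their part in the difference was not tested.

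Motifs of the strong gene desert peaks are given as a description, beside equally many strong peaks at 10 to 200 kb. RUNX matches were in 276 (27.6%) of the 1000 strongest gene desert peaks, with 22.2% in the 1000 strongest at 10 to 200 kb, and in 29 of the 100 strongest. CTCF core matches were in 3 of the 1000 strongest (0.3%), with 0.4% in the 1000 strongest peaks at 10 to 200 kb, and in 0 of the 100 strongest. The E2A E-box was in 6.7% against 10.4%, the EBF motif in 6.9% against 7.9%, the ETS motif in 1.5% against 1.4% and the octamer in 0.9% against 1.2% of the same 2 sets. Of the 12 strongest, 3 held the RUNX motif, in capitals here with 20 bases on each side, one of them the FSCB family member shown above.
FSCB peak, chr14:44272761-44272807, minus strand: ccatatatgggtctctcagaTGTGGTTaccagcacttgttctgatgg
ANKRD30A peak, chr10:36823725-36823771, plus strand: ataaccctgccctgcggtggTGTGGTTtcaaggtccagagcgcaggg
CNTN4 peak, chr3:1651289-1651335, minus strand: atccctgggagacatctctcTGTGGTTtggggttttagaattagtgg

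HOXA9 is the homeobox factor that MLL-rearranged leukemia cells keep active, and its bound regions in SEM cells came from ChIP-seq of a tagged protein. That protein was expressed from an added construct induced with doxycycline. Of the gene desert peaks, 40 overlapped such a region, and 190 other peaks did. The 40 were strong and wide, with a median level of 30.8 CPM and a median width of 403.5 bp, against 2.7 CPM and 165 bp for all gene desert peaks. The 190 outside the deserts were strong and wide too, with medians of 19.0 CPM and 354.5 bp. All 40 passed the count filter. The HOX motif with PBX or MEIS, TGATTTA, was in 6 of the 40 (15%), in 20 of the 190 (10.5%), and in 4.23% of all gene desert peaks. The motif is in capitals in 5 of the 6, with 20 bases on each side.
ZP4 peak, chr1:238640287-238640333, minus strand: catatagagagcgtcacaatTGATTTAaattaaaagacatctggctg
SATB1 peak, chr3:18265093-18265139, plus strand: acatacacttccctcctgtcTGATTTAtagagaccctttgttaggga
ANKRD50 peak, chr4:124981947-124981993, plus strand: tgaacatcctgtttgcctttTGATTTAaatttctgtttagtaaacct
GALR1 peak, chr18:75303784-75303830, plus strand: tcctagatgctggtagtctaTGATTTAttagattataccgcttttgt
STK39 peak, chr2:168870165-168870211, minus strand: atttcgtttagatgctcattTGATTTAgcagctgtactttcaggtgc

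The SATB1 peak, chr3:18265004-18265411, had 68.9 and 63.7 CPM with sgFLT3-DE-1, against 79.5 and 58.1 CPM with sgNT. The sgNT libraries lay on both sides of the sgFLT3-DE-1 libraries. The ZP4 peak, chr1:238640091-238640569, had 118 and 65.9 CPM with sgFLT3-DE-1, against 92.6 and 65.3 CPM with sgNT, with the libraries numbered 1 above those numbered 2. Other strong HOXA9-bound gene desert peaks were near KCNU1 (101 CPM), near OLFM4 (80.3 CPM), in GALNTL6 (77.1 CPM), in EFNA5 (72.4 CPM), near RORB (72.4 CPM) and 477 bp from a noncoding RNA start near FN1 (69.0 CPM). Across the 40 the median log2 fold change was -0.004, with 19 above 0 and 21 below, and 0 passed the test. Both sgFLT3-DE-1 libraries were above both sgNT libraries in 1 of the 40 and below them in 3, against 13.7% and 13.8% of all tested peaks.

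Antigen receptor loci counted as gene deserts because their V segments are not annotated as protein-coding. Of the gene desert peaks, 30 overlapped an immunoglobulin or T cell receptor gene, 11 in the IGH locus, 8 in IGK and 11 in TRA. Their median was 3.1 CPM and their median GC content 51.4%. The strongest, chr14:22539243-22539602 at TRAV22, also overlapped a HOXA9-bound region, and had 44.8 and 40.9 CPM with sgFLT3-DE-1, against 34.4 and 44.8 CPM with sgNT. Next came IGHV4-80 (16.4 CPM), a peak with the CTCF core motif, TRAV14DV4 (14.2 CPM) and IGKV1D-8 (12.4 CPM). V segments of a family are alike in sequence, so their counts are uncertain. Of all gene desert peaks, 1 resembled mitochondrial DNA over a short stretch, near BCHE, at 0.864 CPM.

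To see whether the deserts took a different part of the reads with the guide, the share of counts in gene desert peaks was compared. It was 16.61% and 13.13% with sgFLT3-DE-1, against 14.77% and 12.89% with sgNT, with 95% Wilson intervals of 16.57 to 16.65% and 13.1 to 13.16%, and of 14.74 to 14.81% and 12.85 to 12.93%, which cover counting error only. The sgFLT3-DE-1 mean was 14.87 ± 2.46% and the sgNT mean 13.83 ± 1.33% (SD, n = 2 each). The difference of 1.04 points was smaller than the spread between libraries of a guide (two-sided exact permutation test, p = 0.67, where the smallest possible is 0.33). It was -0.7 points without sgFLT3-DE-1 library 1, 2.78 without sgFLT3-DE-1 library 2, 1.98 without sgNT library 1 and 0.1 without sgNT library 2. The 2 libraries numbered 1 had the larger shares with both guides. The mean GC content of all counts, 53.66% and 54.46% with sgFLT3-DE-1, against 54.63% and 54.84% with sgNT, was lowest in the library with the largest gene desert share. Its part in the share was not tested.

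Among gene desert peaks, this order by library number was seen most often where the peaks were strongest. Low counts scatter more, which can break up the order in weaker peaks, and the part of this was not tested. Both libraries numbered 1 were above both numbered 2 in 98 of the 100 strongest gene desert peaks, in 825 (82.5%) of the 1000 strongest and in 5993 (46.9%) of all 12765 tested gene desert peaks. Both were below in 0, 24 (2.4%) and 1002 (7.85%) of these. Among the 69791 tested peaks elsewhere the counts were 14610 (20.9%) above and 20081 (28.8%) below. Strong peaks outside the deserts were also higher in the libraries numbered 1. The 1000 strongest at 10 to 200 kb had medians of 53.7 and 44.9 CPM with sgFLT3-DE-1, against 50.1 and 46.0 CPM with sgNT. The 1000 strongest gene desert peaks had medians of 47.0 and 33.2 CPM with sgFLT3-DE-1, against 41.8 and 34.0 CPM with sgNT. The labels do not tie the numbers to a batch or a day.

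**Figure D4:**
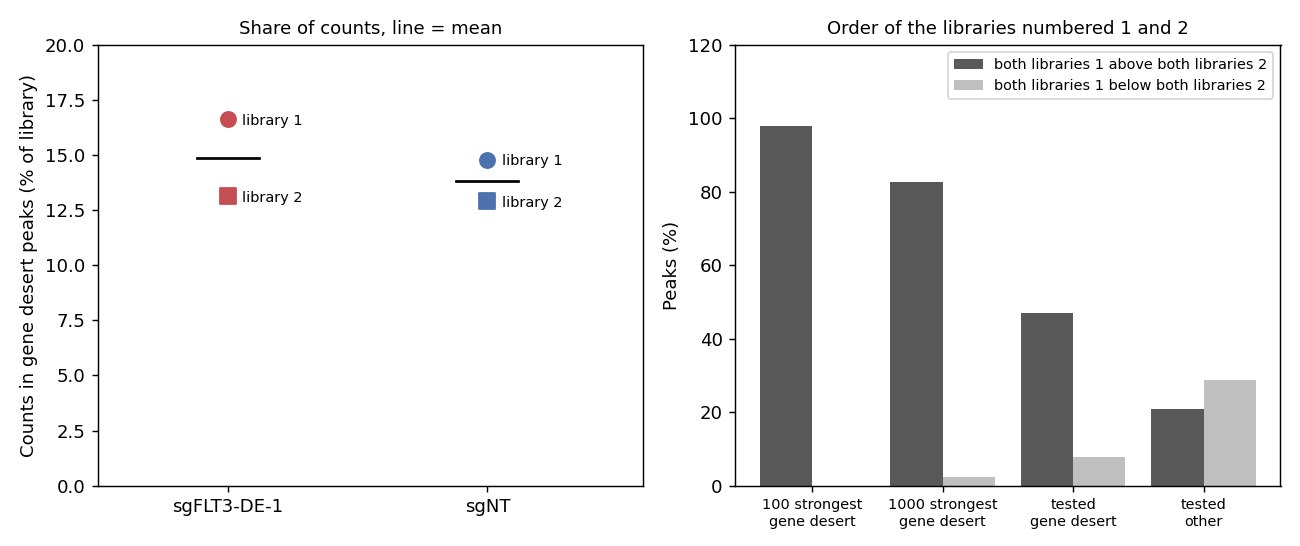
Left, percent of each library's counts in gene desert peaks, with a line at the mean of each guide, where the libraries numbered 1 hold 16.61% and 14.77% and those numbered 2 hold 13.13% and 12.89%. Right, percent of peaks in which both libraries numbered 1 lay above (dark) or below (light) both libraries numbered 2, dark in 98.0% of the 100 strongest gene desert peaks and in 20.9% of tested peaks elsewhere.

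The guide against the FLT3 element was then compared with sgNT at single gene desert peaks. Of the 26596 peaks, 12765 passed the count filter and 13831 did not. With edgeR's quasi-likelihood test and Benjamini-Hochberg adjustment over 82558 tested peaks, 0 gene desert peaks were higher and 0 lower at FDR 0.05, and DESeq2 and limma-voom also called 0. Over all tested peaks the same fit called 0.00242% higher and 0.0% lower. At an unadjusted p under 0.05, 158 gene desert peaks (1.24%) were higher and 60 (0.47%) lower, against a background of 0.827% higher and 1.07% lower. The median SE of a single gene desert peak was 0.42 on the log2 scale.

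As a whole, tested gene desert peaks had a median log2 fold change of 0.079, against 0.015 for all tested peaks and 0.003 for those outside the deserts. Both sgFLT3-DE-1 libraries were above both sgNT libraries in 1953 gene desert peaks (15.3%), against 13.7% of all tested peaks, and below them in 1055 (8.26%), against 13.8%. The shift depended on single libraries. Without sgFLT3-DE-1 library 1 the median was -0.151, without sgFLT3-DE-1 library 2 it was 0.273, without sgNT library 1 it was 0.245 and without sgNT library 2 it was -0.011. With each library corrected for peak GC content the median was 0.030. Split at 40, 50 and 60% GC, the corrected medians of gene desert peaks were 0.019, 0.024, 0.066 and 0.091 as GC rose. Those of other peaks were 0.007, 0.006, 0.007 and 0.018 in the same classes. By chromosome the median lay between -0.002 on chromosome 22 and 0.198 on chromosome 19, where 26 and 23 peaks were tested, and was 0.103 on chromosome 13, which carries FLT3.

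In the fit with the guide as the only term, none of the peaks with the smallest p passed with all 4 libraries. The smallest belonged to chr1:82861186-82861450, 595 kb from ADGRL2, a latrophilin receptor, with 19.8 and 11.9 CPM with sgFLT3-DE-1, against 6.35 and 5.2 CPM with sgNT. The guides did not overlap there, with 64 and 54 counts against 19 and 13, and the log2 fold change was 1.42 ± 0.366 (SE, edgeR adjusted p = 1.0). Without sgFLT3-DE-1 library 2 this peak passed (edgeR adjusted p = 0.0324). The other 4 with higher values had fewer counts. A peak 251 kb from NDST4, of 84 bp and 19.0% GC, had 26 and 24 counts with sgFLT3-DE-1, against 8 and 0 with sgNT. With the replicate number added as a block, the ADGRL2 and NDST4 peaks passed, as given in the last section. Peaks near CLEC14A (12 and 16 counts with sgFLT3-DE-1, 1 and 1 with sgNT) and ZIC1 (31 and 31 with sgFLT3-DE-1, 9 and 7 with sgNT), and a peak inside GLIS3 (11 and 24 with sgFLT3-DE-1, 3 and 1 with sgNT), made up the rest.

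On the lower side, the smallest p belonged to chr10:113246542-113246743, 410 kb from ADRA2A, an adrenergic receptor, with 1.24 and 0.663 CPM with sgFLT3-DE-1, against 5.35 and 3.6 CPM with sgNT. That is 4 and 3 counts against 16 and 9, with a log2 fold change of -2.26 ± 0.725 (SE, edgeR adjusted p = 1.0). Peaks near XYLT1 (10 and 25 counts with sgFLT3-DE-1, 33 and 23 with sgNT) and SPRY2 (14 and 17 with sgFLT3-DE-1, 25 and 22 with sgNT) followed, and peaks inside FSTL5 (6 and 9 with sgFLT3-DE-1, 20 and 12 with sgNT) and CDH12 (8 and 8 with sgFLT3-DE-1, 21 and 10 with sgNT). At XYLT1 a sgFLT3-DE-1 library, with 25 counts, exceeded a sgNT library with 23 in raw counts but not in CPM (5.53 and 9.21 in these).

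**Figure D5:**
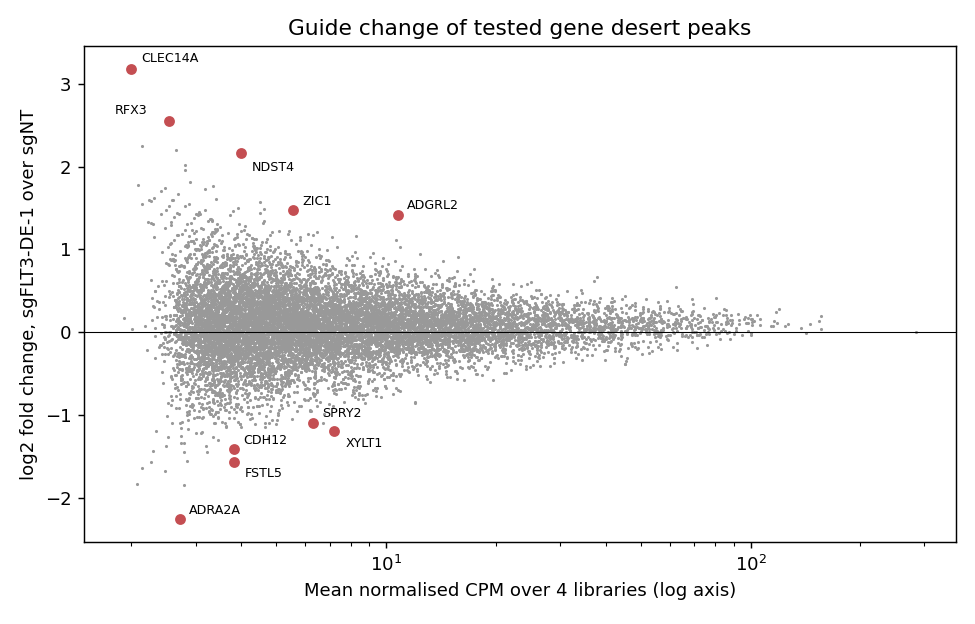
Log2 fold change of sgFLT3-DE-1 over sgNT (y axis) against mean normalised CPM (x axis, log scale) for the 12765 tested gene desert peaks, with the 5 of smallest p in each direction in red, named by nearest coding gene (the GLIS3 peak is nearest to RFX3). The spread narrows as the level rises, and the named peaks lie between 1.99 and 10.8 CPM, with 0 past the threshold.

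The 4 gene lists had no called peak. Their median log2 fold changes were 0.058 for hematopoietic transcription factors, 0.032 for signalling genes of blood cells, 0.085 for developmental factors and 0.081 for neuronal genes, beside 0.079 for all tested gene desert peaks. Of 17 tested peaks at antigen receptor genes, 12 were higher and 5 lower with sgFLT3-DE-1. Both sgFLT3-DE-1 libraries were above both sgNT libraries in 4 and below them in 1, against 13.7% and 13.8% of all tested peaks. The IGKV1D-8 peak, picked by its change, had 19.5 and 13.3 CPM with sgFLT3-DE-1, against 8.36 and 8.41 CPM with sgNT. It did not pass the test (log2 fold change 0.95 ± 0.332 SE, edgeR adjusted p = 1.0).

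Summed over 1 Mb, 1602 gene desert bins were tested among 4224 rows. With edgeR's quasi-likelihood test, 0 gene desert bins passed FDR 0.05, and 0.0% of all rows did; DESeq2 and limma-voom also called 0. At an unadjusted p under 0.05, 8 gene desert bins (0.499%) were higher and 0 lower, against 0.26% and 0.0473% of all rows. The median log2 fold change was 0.059 for gene desert bins and -0.008 for all rows, with a median SE of 0.22 for the bins. For the bins it was -0.022 without sgFLT3-DE-1 library 1, 0.171 without sgFLT3-DE-1 library 2, 0.129 without sgNT library 1 and 0.015 without sgNT library 2. The 5 bins with most gene desert peaks had log2 fold changes between -0.04 and 0.14. At the SATB1 bin, with the narrowest spread of these, it was -0.03 ± 0.15 (SE, edgeR adjusted p = 1.0).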

How the data were processed

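ATAC-seq libraries of SEM cells (2 per guide) were grouped by their titles. The authors deposited raw counts per consensus peak (hg19). The sources differ on how these were made. The study's methods name Bowtie2, whereas the notes on processing that the submitters gave name BWA, with MACS2 2.1.1.20160309 for peaks. The study's description of its ATAC-seq processing says that duplicates were identified and that only pairs mapped properly and to 1 place were kept. The sources used here do not say how the counts per peak were drawn from these. Peaks were called in the libraries compared, and starts were read as 0-based and are printed 1-based.

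Distances, GC content and overlaps (at least 1 bp) came from GRCh37 and GENCODE 44 lifted to it. The HOXA9-bound regions were the study's 229 ChIP-seq regions, used as positions. Counts were filtered (filterByExpr, minimum count 10, minimum total 15), scaled by TMM and tested with edgeR 4.0.16 in R 4.3.3, with the guide as the only term. SE was taken as the size of the log2 fold change divided by the root of the F statistic. Alternatives used DESeq2 1.42.0 and limma 3.58.1 (voom). Sequence likeness used BLAST+ and was added after the data were seen, as was the count by library number. The tests were tried on simulated data with independent libraries and no effect of library number. The simulation therefore does not show how they behave where same-numbered libraries deviate together.

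Named peaks were the 12 strongest, the 5 of smallest p in each direction, the 3 widest, the 3 farthest, the 3 on either side of the limit, and the strongest at HOXA9-bound regions, antigen receptor genes, noncoding RNA starts, gene lists and dense bins. Members and lists were chosen with earlier results of these data known. Of the 12 strongest peaks, 1 is not reported here.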

Additional observations from a re-analysis of the deposited data

How the results depend on the processing

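The count of gene desert peaks followed the definition, with 44004 beyond 100 kb, 10062 beyond 500 kb and 1137 when the starts of all genes, noncoding ones included, were used, against 26596. With the starts of all protein-coding transcripts, not only the basic set, it was 24363. With the replicate block (replicate number as a block) 4 single peaks were called higher, with GC offsets and the replicate block 1, and without sgFLT3-DE-1 library 2 1, against 0. Of the named peaks, the block called those near ADGRL2 (adjusted p = 0.0016) and NDST4 (adjusted p = 0.0185). For 1 Mb bins the replicate block called 6 higher, against 0. Same-numbered libraries deviated together (correlation 0.397 over tested peaks, 0.2385 in the deserts), but there were only 2 pairs and no label ties the numbers to a batch, so no pairing was assumed. With each library left out, calls were 0 to 1 for peaks and 0 for bins, the median log2 fold change ran between -0.151 and 0.273 for peaks and between -0.022 and 0.171 for bins, and the difference in share between -0.7 and 2.78 points, the lowest of each without sgFLT3-DE-1 library 1. The lone library was then assumed to vary like the other group's. Under the other normalizations, filters, tools, distances and bin size, 0 peaks and 0 bins were called, and the medians moved by less than the spread between replicates (0.184). Of 118 refits of the 10 peaks of smallest p, 0 turned round and 4 passed the threshold. The cause of these changes was not tested. Low counts limit single peaks, 13831 of which could not be tested.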
